A study of Homo sapiens with 3 samples.

Results

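Binding of the HA-tagged fusion protein PSF-TFE3 was examined at 7 human genes of the hypoxia response, glycolysis and mitochondrial control, namely HIF1A, VEGFA, SLC2A1, HK2, PFKFB3, LDHA and PPARGC1A. For each gene, every summit inside a window holding the gene and about 10 kb on each side was taken from the list of each library. A summit is the single base of highest enrichment within a called peak. The windows spanned 510 kb of hg19 in all and held 47 of 44983 summits in replicate 8 and 32 of 28084 in replicate 9, a mean of 39.5 ± 10.6 (SD, n = 2). Within the windows the rule used only position, so neither the scores nor the recurrence of the summits chose among them. The genes themselves were chosen with earlier results of these data known. Every gene had a summit in at least 1 library, and 6 of the 7 had one in both. Of genome stretches as long as each window, 46.8% (PPARGC1A) to 73.1% (LDHA) held none in replicate 8. In replicate 9 the range was 55.4% (PPARGC1A) to 79.9% (LDHA). The share of all genes with a summit was not computed.

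In this fusion, part of the RNA-binding protein PSF (gene name SFPQ) is linked to TFE3, a transcription factor. HK-2, an immortalised line of human proximal tubule epithelium, carried it under doxycycline control and was given 0.2 µg/ml doxycycline for 24 h. The cell line HK-2 and the gene HK2 are unrelated names. There was 1 group, made of 2 libraries of DNA recovered with an anti-HA matrix (ChIP-seq, chromatin immunoprecipitation followed by sequencing), labelled replicates 8 and 9, which the study describes as independent clones, and both were induced. A library of input DNA, chromatin that was not immunoprecipitated, served as the authors' background for calling peaks and has no summit list here. The design text of the series names PRCC-TFE3 in place of PSF-TFE3, and the sample labels were followed. No uninduced or tag-free sample was analysed here, so no comparison between conditions and no test was possible. The values are positions and a score, the −log10 of the q-value given by the peak caller, where a higher score means stronger evidence over input. The summit lists carry no read counts, so no value here is scaled by sequencing depth, and a gene without a summit is one at which no peak passed the authors' threshold.

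Cells that lack oxygen stabilise the transcription factor subunit encoded by HIF1A, which pairs with ARNT and switches on genes for blood vessel growth and for glycolysis. Glycolysis breaks down glucose taken up by transporters such as the product of SLC2A1, and LDHA regenerates the cofactor that keeps the pathway running without oxygen. PPARGC1A encodes PGC-1alpha, a coactivator that drives the making of mitochondria and is known to be controlled by the MiT/TFE family, to which TFE3 belongs. Factors of this family bind short E-box motifs, of which CACGTG is the palindromic form, whereas the core of the hypoxia response element is ACGTG or GCGTG.

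The sequences in front of 3 member genes are shown because paired summits lay near their approximate starts, and because they differ in E-box letters. These are 3 of the 4 genes with such a pair. An approximate start is the window edge less 10 kb. At HK2 it need not match the RefSeq start printed here, so no pair is placed at the HK2 letters. Each covers 240 bases, from 250 to 11 bases before a start that RefSeq gives on GRCh38.p14, 5′ to 3′ on the gene's own strand, with CACGTG in capitals. None of these bases overlapped an annotated exon of the same gene, and exons of other genes were not checked. The lists are on another build, so distances from these letters to the summits were not computed.
LDHA, first start, chr11:18394313-18394552, plus strand: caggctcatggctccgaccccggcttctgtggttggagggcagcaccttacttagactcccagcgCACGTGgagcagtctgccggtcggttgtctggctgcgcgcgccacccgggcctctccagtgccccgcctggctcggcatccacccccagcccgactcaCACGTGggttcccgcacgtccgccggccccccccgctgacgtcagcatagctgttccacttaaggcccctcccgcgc
HK2, second start, chr2:74834920-74835159, plus strand: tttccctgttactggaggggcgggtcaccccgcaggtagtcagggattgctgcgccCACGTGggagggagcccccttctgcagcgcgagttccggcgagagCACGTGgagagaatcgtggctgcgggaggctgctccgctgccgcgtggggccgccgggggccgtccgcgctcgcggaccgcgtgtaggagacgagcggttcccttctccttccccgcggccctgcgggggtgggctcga
HIF1A, first start, chr14:61695263-61695502, plus strand: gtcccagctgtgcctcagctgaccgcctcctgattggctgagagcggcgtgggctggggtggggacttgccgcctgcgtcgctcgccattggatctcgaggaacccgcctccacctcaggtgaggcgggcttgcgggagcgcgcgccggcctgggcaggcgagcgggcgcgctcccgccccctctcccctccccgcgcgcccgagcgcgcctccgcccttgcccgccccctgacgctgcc
The LDHA sequence held CACGTG at 185 and 87 bases before the start, and the HK2 sequence held it at 194 and 149 bases before a start that lies 1043 bp after the first HK2 start. The HIF1A sequence held no CACGTG and no CACATG on either strand.

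Summits were counted in each window first. The SLC2A1 window held 14 and 7 summits in replicates 8 and 9, the HIF1A window 10 and 8, and the HK2 window 9 and 9. The PFKFB3 window held 7 and 3, the LDHA window 3 and 1, the PPARGC1A window 3 and 4, and the VEGFA window 1 and 0. Replicate 8 had more summits at 5 of the 7 genes, the lists being of unequal length. Windows differ in length, so density is the fairer measure. Over all windows it was 9.22 summits per 100 kb in replicate 8 and 6.27 in replicate 9, beside 1.52 and 0.946 over the whole lists. The windows were therefore 6.08 and 6.63 times as dense as the average of their own list. That average includes assembly gaps and stretches poor in genes, and no set of matched genes was drawn, so the ratio does not single out these genes among genes.

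**Figure D1:**
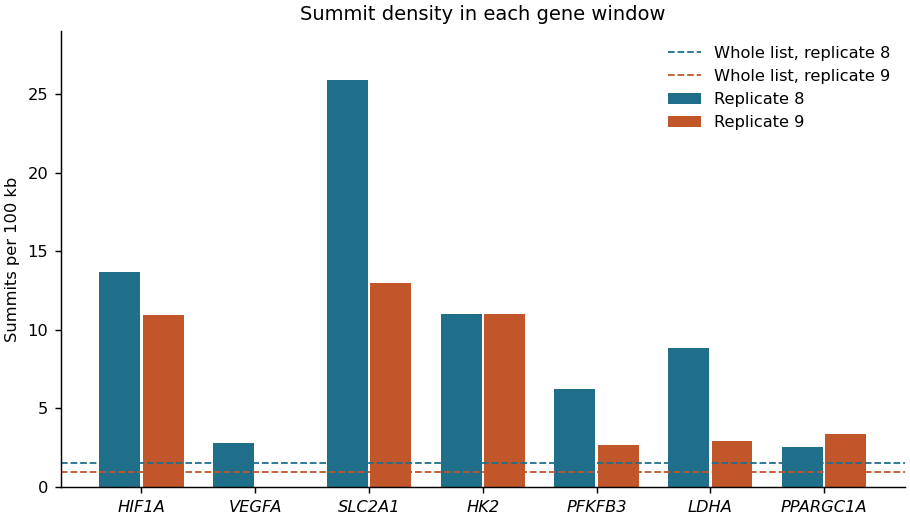
Summits per 100 kb (vertical axis) in the window of each gene, with 1 bar per library and dashed lines at the density of each whole list. SLC2A1 stood highest in both libraries, at 25.9 and 13.0 summits per 100 kb, and VEGFA lowest in replicate 9, with none.

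SLC2A1 had the densest window in both libraries, 25.9 and 13.0 summits per 100 kb. HIF1A followed with 13.7 and 11.0, and HK2 with 11.0 in each. When the genome was divided into stretches of the same length as a window, between the first and the last summit of each chromosome, few held as many summits as these 3 windows. The share was 0.0382% and 0.388% of stretches for SLC2A1, 0.713% and 0.480% for HIF1A, and 1.51% and 0.398% for HK2. The remaining windows had counts that more stretches reached. For PFKFB3, 6.20% and 14.3% of stretches held at least as many summits, for LDHA 6.05% and 20.1%, and for PPARGC1A 25.3% and 9.67%. For VEGFA, 28.0% of stretches had at least 1 summit in replicate 8, and 79.0% of stretches, like its window, had none in replicate 9. The order of the 3 densest windows is not firm, since HIF1A and HK2 had the same density in replicate 9 to 3 digits, whereas SLC2A1 led in each library.

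Recurrence between the libraries was the only replicate check available. A summit was called shared where the other list had a summit within 200 bp. In the windows, 22 of 47 replicate 8 summits were shared (46.8%, exact Clopper-Pearson 95% interval 32.1 to 61.9%), beside 47.9% of the whole list. In replicate 9, 23 of 32 were shared (71.9%, interval 53.3 to 86.3%), beside 76.6% of the whole list. Both backgrounds lay within the intervals, so the recurrence of these summits could not be told apart from that of their lists. The intervals cover counting error only.

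At the median, the scores of the window summits were somewhat above those of their lists. The median was 8.93 in replicate 8 and 13.9 in replicate 9, beside 8.20 and 10.5 over the whole lists, and the median summit scored above 53.3% and 60.7% of its list. The top 10% of each list by score contained 5 of the 47 summits (10.6%, beside 9.98% of the whole list) and 5 of the 32 (15.6%, beside 10%). In the windows, shared summits had higher scores than the others. Their median was 15.7 in replicate 8 and 18.7 in replicate 9, against 4.59 and 4.76 for summits that were not shared. Of the 25 and 9 summits that were not shared, 14 and 5 had a score under 5, and for 17 and 8 the other list had a summit within 2 kb. A score of at least 10 without a partner occurred for 3 summits in each library, at HK2 and SLC2A1 in replicate 8 and at HIF1A, HK2 and PPARGC1A in replicate 9. The same split into shared and unshared summits is not given for the whole lists. These values therefore describe the windows and do not set them apart from their lists.

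Mutually nearest summits within 200 bp formed 22 pairs at 6 genes. HK2 had 6 pairs, HIF1A 5, SLC2A1 5, PFKFB3 3, PPARGC1A 2 and LDHA 1, so 15 pairs lay at the glycolysis genes and none at VEGFA. The summits of a pair were 0 to 183 bp apart with a median of 35.5 bp, beside 52 bp over all 21518 pairs of the lists. The replicate 9 score was the higher in 12 of the 22 pairs, beside 9996 of all pairs. Scores are not normalised between libraries, so a pair's place within each list is the better guide. Both summits were in the top 10% of their lists in 2 pairs (9.09%, beside 9.15% of all pairs), and both of these were in the HIF1A window.

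**Figure D2:**
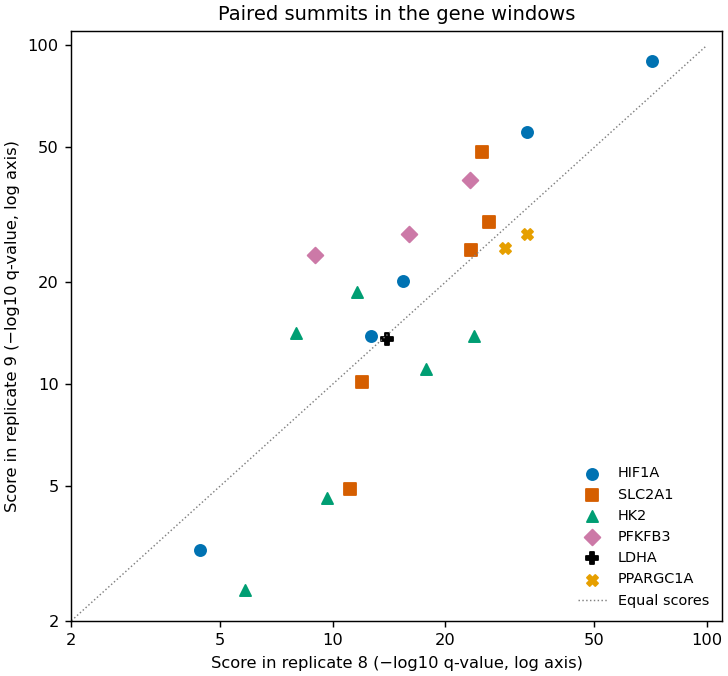
Score in replicate 9 (vertical axis) against score in replicate 8 (horizontal axis), both −log10 q-values on log axes, for the 22 pairs, with 1 symbol per gene and a dotted line where the scores are equal. The HIF1A pair with scores of 71.2 and 89.6 stands farthest up, the 3 PFKFB3 pairs lie above the line, and both PPARGC1A pairs lie below it.

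The window of HIF1A, which encodes the oxygen-regulated subunit of the factor HIF-1, held the strongest site of all 7 windows. The window was chromosome 14, 62152 to 62225 kb. The site lay at position 62222225 in replicate 8 and 62222238 in replicate 9, which are 13 bp apart, with scores of 71.2 and 89.6. It ranked 24 of 44983 and 100 of 28084. Its place was 60.2 kb from the approximate gene start, past the end of the gene, in the flank on the side of SNAPC1, the next protein-coding gene at higher coordinates. The distance to SNAPC1 was not computed, so only the flank of the window places this site with HIF1A. Gene starts are approximate because they were taken as the window edge less the flank, and at HIF1A, VEGFA, SLC2A1 and LDHA the window without flanks is within 1 kb of the length of the gene in RefSeq.

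The second strong HIF1A site lay at the gene start. Both lists had the summit at the same base, 62162021, which is 0.02 kb from the approximate start, with scores of 33.0 and 55.3. It scored above 94.4% of its list in replicate 8 and above 95.9% in replicate 9. The promoter letters printed for HIF1A belong to this end of the gene. No other pair at any of the 7 genes shared the same base. The other 3 HIF1A pairs were weaker. At 62213095 and 62213232, near the end of the gene, the scores were 15.4 and 20.1, and at 62168832 and 62168799, 6.83 and 6.80 kb from the start, they were 12.6 and 13.9. The last pair, at 62163971 and 62163811, scored 4.40 and 3.24. HIF1A summits without a partner numbered 5 in replicate 8, scoring 2.50 to 7.57, and 3 in replicate 9, of which the highest scored 15.8. Antisense transcripts named HIF1A-AS1, HIF1A-AS2 and HIF1A-AS3 are annotated at this gene, and summits have no strand, so a summit cannot be assigned to HIF1A rather than to them.

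VEGFA, which encodes the growth factor that hypoxic cells release to draw in blood vessels, had the fewest summits. Its window, chromosome 6, 43728 to 43764 kb, held 1 replicate 8 summit at 43737654 with a score of 3.92, higher than only 15.8% of its list, and no replicate 9 summit. The summit lay 0.347 kb from the approximate start, and the nearest replicate 9 summit was 29023 bp away. A far stronger pair lay just past the upper edge of the window, at 43766688 and 43766677, with scores of 34.0 and 49.6. These summits were 2.69 and 2.68 kb outside, and widening the window would count them with VEGFA.

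SLC2A1 encodes GLUT1, the glucose transporter of the cell surface, and lies on the minus strand in the window chromosome 1, 43381 to 43435 kb. Its summits were spread over many sites of moderate score. In replicate 8 the 14 scores ran from 1.60 to 26.1 with a median of 8.81, and in replicate 9 the 7 scores ran from 4.41 to 48.3 with a median of 10.1. The libraries differed in which site was strongest. In replicate 8 it was 43406968, within the gene 18.0 kb from the approximate start, with a score of 26.1, and its replicate 9 partner at 43406973 scored 30.2. In replicate 9 it was 43432839, upstream at -7.84 kb from the start, with a score of 48.3, and its replicate 8 partner at 43432787 scored 25.1. Both sites were thus found in both libraries, 25871 bp apart, and only their order differed.

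The 3 remaining SLC2A1 pairs had scores of 23.4 and 24.9 at 43397939 and 43398000, 12.0 and 10.1 at 43427153 and 43427133, and 11.1 and 4.88 at 43428308 and 43428345. Of these, the first lay inside the gene and the other 2 in the upstream flank. The upstream flank was crowded. It held 9 replicate 8 summits over 7.96 kb with a median gap of 968 bp, and 4 replicate 9 summits over 7.24 kb with a median gap of 1535 bp. The divergent transcript SLC2A1-DT starts on this side of the gene, and a summit there could belong to either. The flank past the end of the gene held no summit in either library. Beyond the upper edge, the nearest summits were at 43437609 in replicate 8, scoring 23.4, and at 43436136 in replicate 9, scoring 14.2.

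HK2 encodes hexokinase 2, which traps glucose in the cell by phosphorylating it. Its window was chromosome 2, 75049 to 75131 kb, and each library had 9 summits there. The strongest HK2 summit of each library was high in its list but had no partner within 200 bp. In replicate 8 it was at 75093564 with a score of 52.1, rank 305, and in replicate 9 at 75092488 with a score of 66.2, rank 585. These are the highest scores among all window summits without a partner. They lay 1076 bp apart, 34.6 and 33.5 kb from the approximate start, so the strong summits were close but did not meet the distance for a shared site.

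The 6 HK2 pairs were of moderate score. The pair with the best placing in both lists was at 75053366 and 75053342, in the upstream flank, with scores of 11.6 and 18.7, higher than 63.9% and 70.5% of their lists. Replicate 8 gave the higher score at 75071015 and 75070968, with 23.8 against 13.8, and at 75072516 and 75072482, with 17.7 against 11.1. Replicate 9 gave the higher score at 75095165 and 75095233, with 7.97 against 14.2. At the approximate start, the pair at 75059320 and 75059311 scored 9.66 and 4.62. The pair at 75062156 and 75062230, 3.16 and 3.23 kb from that start, scored 5.83 and 2.46. A stronger replicate 9 summit, at 75062032 with a score of 6.74, lay 124 bp from the same replicate 8 summit. It counted as shared but was not the nearest, so it formed no pair. The HK2 start is uncertain, since the window without its flanks spans 62 kb and the gene 59.2 kb in RefSeq, and the larger mismatches at PFKFB3 and PPARGC1A are given with those genes. The CACGTG letters printed for HK2 belong to its second start. A further pair lay just below the window, at 75048660 and 75048616, with scores of 8.47 and 10.8.

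PFKFB3 encodes an enzyme that makes fructose 2,6-bisphosphate, the activator of the committed step of glycolysis. Its window, chromosome 10, 6176 to 6288 kb, held 3 pairs, and replicate 9 had no other summit there. All 3 pairs lay inside the window without its flanks and scored higher in replicate 9. At 6261117 and 6261187, 75.1 and 75.2 kb from the approximate start, the scores were 23.3 and 39.9. At 6218959 and 6218941 they were 15.9 and 27.7, and at 6205838 and 6205856 they were 8.93 and 24.0. The same order held for their places within the lists, since each pair was placed higher in replicate 9, as were 7 of the 22 window pairs and 5522 of all 21518. The 4 replicate 8 summits without a partner scored 4.59 to 9.18. The RefSeq gene is 181.7 kb long against 92 kb for the window without its flanks, so part of the gene as RefSeq gives it was not in the window.

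LDHA encodes the lactate dehydrogenase subunit that turns pyruvate into lactate. It had 1 pair, and that pair lay at the gene start. In the window chromosome 11, 18406 to 18440 kb, the summits were at 18416046 in replicate 8 and 18415999 in replicate 9, 47 bp apart and within 0.045 kb of the approximate start. Their scores were nearly equal, 14.0 and 13.5, higher than 71.0% and 59.3% of their lists. No other replicate 9 summit fell in the window, and the other replicate 8 summits scored 9.23 at 18406300 and 2.68 at 18417310. The first of these lay 0.299 kb inside the lower edge, on the side away from the gene, and just outside that edge were summits scoring 3.92 in replicate 8 and 3.15 in replicate 9.

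PPARGC1A encodes the coactivator PGC-1alpha and lies on the minus strand in the window chromosome 4, 23783 to 23902 kb. It had few summits for the longest of the windows, 3 in replicate 8 and 4 in replicate 9, but a pair at each end. At the upper end, the summits were at 23891884 in replicate 8 with a score of 33.1 and at 23891701 in replicate 9 with a score of 27.7. They lay 0.117 and 0.300 kb from the approximate start. They were 183 bp apart, the widest of all pairs. Past the end of the gene, the pair at 23791564 and 23791557 scored 28.9 and 25.2. In replicate 8 both summits were in the top 10% of the list, higher than 94.4% and 91.9% of it, and in replicate 9 neither was, at 81.8% and 79.5%. Between these pairs the body of the gene held 1 further summit, in replicate 8 at 23890094 with a score of 3.33. The other replicate 9 summits scored 10.1 at 23790237 and 4.24 at 23892914. RefSeq gives a distal start, which the window did not reach, and a second start 591804 bp from it. The RefSeq gene is 680.9 kb long against 99 kb for the window without its flanks. The second RefSeq start need not be the approximate start used here, and the distance between them was not computed. The nearest summits beyond the upper edge were a strong pair at 23932656 and 23932687, scoring 38.5 and 51.6, 30.7 kb outside the window.

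**Figure D3:**
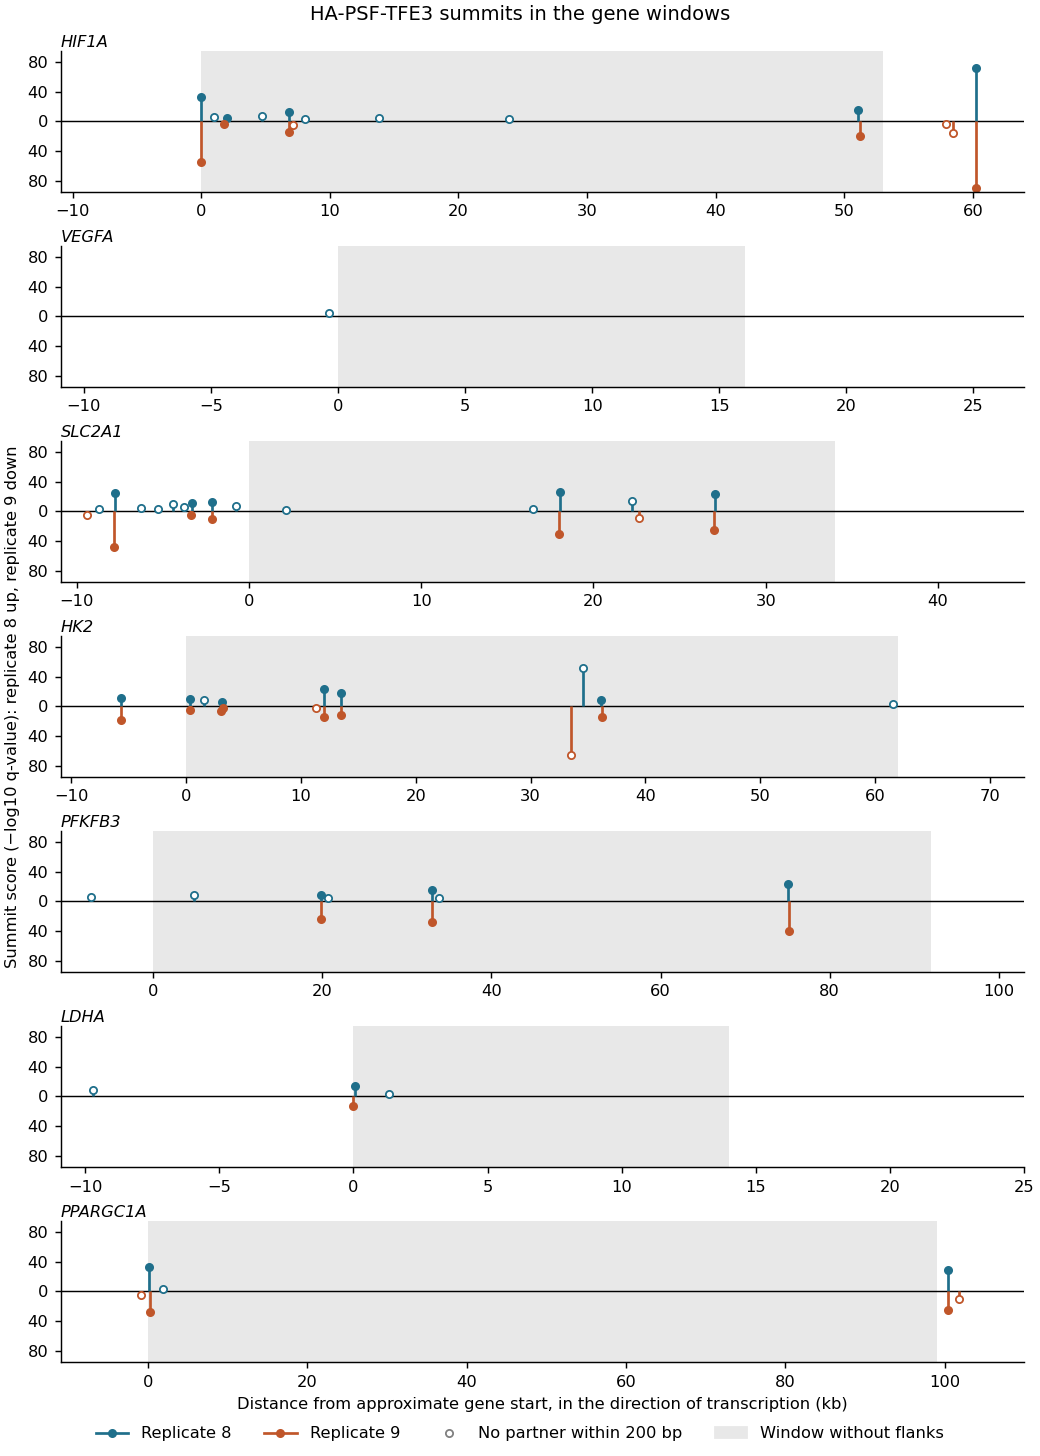
Positions of all summits in the 7 windows, with distance from the approximate gene start in the direction of transcription (horizontal axis, kb) and the score (vertical axis, −log10 q-value) drawn upward for replicate 8 and downward for replicate 9. Open circles have no partner within 200 bp, and grey marks the window without its flanks. HIF1A has strong stems at its start and past its end, SLC2A1 a crowd of low summits in front of its start, HK2 a strong unpaired summit in each library inside the gene, and VEGFA a single low summit.

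The genes differed in whether a pair lay at the approximate start. HIF1A, HK2, LDHA and PPARGC1A had a pair within 0.319 kb of it, and SLC2A1, PFKFB3 and VEGFA had none there. The share of all genes with a pair so near a start was not computed. The count therefore does not set these genes apart from others. At HK2, PFKFB3 and PPARGC1A the window without flanks does not match the length of the RefSeq gene. For these genes the contrast holds for the approximate start only, and distances to RefSeq starts were not computed. At SLC2A1 the nearest summit to the start was 0.737 kb away in replicate 8, with a score of 7.51, and 2.13 kb away in replicate 9, with a score of 10.1. At PFKFB3 it was 4.79 kb away in replicate 8, with a score of 9.18, and 16.5 kb away and outside the window in replicate 9.

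Promoter letters were compared with those of all genes in the reference tables. Of the 7 genes, 6 had an entry, giving 11 promoters of 250 bases before to 50 after a start, beside 35116 promoters of all genes. CACGTG, read on both strands, was in 4 of the 11 (36.4%) beside 7.26% of all promoters, and these belonged to HK2, LDHA, PFKFB3 and PPARGC1A. In PPARGC1A it was at the distal start, 123 bases before it, and in PFKFB3 it was 108 bases before the second start, 58011 bp from the first. The related E-box CACATG was in 1 of the 11 (9.09%), beside 11.1% of all promoters. It was at the second RefSeq start of PPARGC1A, which was not placed against the summits. The AP-1 letters TGACTCA, which read TGAGTCA on the other strand, were in none of the 11, beside 4.95% of all promoters.

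The cores of the hypoxia response element were searched in the same 11 promoters. ACGTG, which every CACGTG contains, was in 5 of them (45.5%) beside 21.4% of all, and GCGTG in 8 (72.7%) beside 36.5%. GCGTG was found at all 6 genes with an entry, HIF1A and SLC2A1 included, and ACGTG at the same 4 genes as CACGTG. Promoters of 1 gene share a locus, and letters in a promoter are a description of the sequence, not of binding. No promoter of SLC2A1 or HIF1A held either E-box.

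A list of 31 further genes of these pathways could be examined for promoter letters only, because their positions on hg19 were not given. Of these, 27 had an entry, with 50 promoters. CACGTG was in 4 promoters (8%), those of the glycolytic enzymes ALDOA, ALDOC and GAPDH and of BNIP3, which marks mitochondria for removal under hypoxia, a share near the 7.26% of all promoters. CACATG was in 7 (14%, beside 11.1% of all promoters) and the AP-1 letters in 4 (8%, beside 4.95%). ACGTG was in 17 (34%, above the 21.4% of all promoters), whereas GCGTG was in 16 (32%, below the 36.5% of all). Each core was at 14 of the 27 genes. Among well known hypoxia targets, CA9, EGLN1 and PDK1 held ACGTG only, ADM held GCGTG only, and PGK1 held both. ARNT, the partner of HIF1A, was on this list, and its summits were not counted.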

How the data were processed

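HA-PSF-TFE3 ChIP-seq was analysed in 2 ChIP libraries, grouped by their labels. The authors called peaks with MACS2 in each library against 1 input library, without pooling, and deposited 1 summit per peak with a −log10 q-value score. The lowest scores, 1.37 and 1.33, lie just above the 1.30 of a q-value of 0.05. The labels name hg19, whereas the study's descriptions name both hg38 and hg19, and both a p-value and a q-value cutoff. Because 364 positions of the replicate 8 list and 262 of replicate 9 exceed hg38 chromosome ends, hg19 was used and no coordinate was converted. Gene starts are the window edge less 10 kb.

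Summits were counted by window, ranked by score within their list, called shared within 200 bp, and paired when mutually nearest. Shares have exact 95% intervals. In each window the pair with the best placing in both lists, pairs in the top 10% of both lists, and unpaired summits that were in the top 10% or the strongest of a window were named by rule, and other summits were named after their values were seen. The genes and lists were chosen with earlier results of these data known. The distance and sharing steps were tested on a simulated list, and merging on a small made-up list. The other steps were not tested in this way. Letters were counted in RefSeq promoters of GRCh38.p14. Alternatives were minimum scores, window sizes, equal list lengths, narrower and wider distances, merging, and leaving out each library or gene. The −log10 scores are not normalised between libraries. The study states read totals for both libraries, but the lists hold no read counts, and depth was not used here. Python 3.11.15, numpy 2.4.6, scipy 1.17.1 and matplotlib 3.10.9 were used.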

Additional observations from a re-analysis of the deposited data

How the results depend on the processing

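Values are means of both libraries. The count of 39.5 window summits fell to 27.5 with a minimum score of 5 and to 20.5 with 10, and was 32 or 47 with a single library. Under the other alternatives it moved by less than the SD between the libraries, 10.6. The share of shared summits, 59.3%, rose to 78.1% with that minimum and fell to 36.8% when 50 bp was required. The 22 pairs became 14 at 50 bp. The density relative to the whole list, 6.36, was 5.83 with a minimum score of 5 and 7.31 with 10, and 6.08 or 6.63 with a single library. It was 5.70 without HIF1A, 6.77 without VEGFA, 5.28 without SLC2A1, 5.77 without HK2, 7.17 without PFKFB3 and 7.50 without PPARGC1A, so the mean stayed above 5 in each. By library, the density without SLC2A1 was 4.78 in replicate 8 and 5.79 in replicate 9. The median score percentile of 57.0 ran from 53.3 to 60.7 over its 14 alternatives, each within the spread between libraries. Leaving out a library gives no value for shares or pairs. No paired analysis was possible because there was 1 group and no test. Depth was not used, so whether deeper sequencing would add summits was not tested.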
